A study of Mus musculus with 10 samples.

Results

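Yap, Taz, the Tead transcription factors and their classic target genes were followed in mouse embryos at the 8-cell stage. The set holds 9 of the 24421 genes in the deposited tables and was chosen by gene symbol: Yap1 and Wwtr1 (the gene of Taz), Tead1, Tead2, Tead3 and Tead4, the Tead-binding protein gene Vgll4, and the targets Ctgf and Cyr61, which current annotation calls Ccn2 and Ccn1. RNA was measured by strand-specific total RNA sequencing in 10 libraries, 2 in each of 5 groups: siKlf5, a knockdown of the transcription factor Klf5; siTfap2c, a knockdown of the transcription factor Tfap2c; Arpc1bE_CdxE1_KO and CdxE2_KO, knockouts of Tfap2c motifs in the genome; and Ctrl, the control. All 5 groups were of BDF1 genotype, and zonae and polar bodies had been removed. The labels give neither the positions of the deleted motifs nor what the control embryos received, and they do not say whether the 2 libraries of a group came from separate embryo pools, so a p-value here stands for the spread among the libraries sequenced, which may be technical. Values are gene abundances as log2(value + 1), here called log2 units. The kind of abundance is not given, so levels were compared between groups and not between genes, and the added constant of 1 understates changes of low genes.

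Yap and Taz are transcriptional coactivators that do not bind DNA themselves. The Hippo pathway kinases phosphorylate them, which holds them in the cytoplasm; unphosphorylated, they enter the nucleus, bind Tead factors and switch on genes such as Ctgf and Cyr61, which encode secreted matrix-associated proteins. In the mouse embryo, nuclear Yap with Tead4 drives trophectoderm genes such as Cdx2 in outer cells, while angiomotin and the Lats kinases keep Yap cytoplasmic in inner cells. Only RNA levels were measured here, not the phosphorylation or location of these proteins.

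The DNA letters that Tead factors recognise are shown first, because Tead factors act on their targets through them. A Tead site is commonly written as GGAATG, or CATTCC on the other strand. The 250 bases before the annotated start of Cyr61, the target gene that passed the test in most comparisons, hold 1 such hexamer, in capitals, whose first base lies 103 bases before the start (RefSeq, GRCm38.p6, chr3:145649986-145650235, minus strand, 5′ to 3′):

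Cyr61: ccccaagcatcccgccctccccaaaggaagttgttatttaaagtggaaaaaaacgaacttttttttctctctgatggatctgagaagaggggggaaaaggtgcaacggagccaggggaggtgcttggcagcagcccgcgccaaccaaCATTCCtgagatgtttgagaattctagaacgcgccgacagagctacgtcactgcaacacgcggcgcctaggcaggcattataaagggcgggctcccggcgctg

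Upstream sequence was matched for 6 of the 9 genes; Tead1, Tead4 and Ctgf had no entry. Of these 6, the hexamer stood in that of Yap1, Wwtr1 (2 of 2 entries, which share the site), Tead3 (2 of 3 entries), Vgll4 and Cyr61. It did not stand in that of Tead2. Of all 32851 RefSeq promoters, counted singly and not by gene, 12.6% held it on either strand. The 26 bases around the hexamer, again in capitals, are shown for the coactivators and for Vgll4, whose own genes code for Tead-binding proteins (all on the minus strand, at chr9:8004722-8004747 for Yap1, chr3:57576031-57576056 for Wwtr1 and chr6:114969270-114969295 for Vgll4). A match of 6 letters describes the sequence only and is no measure of binding.

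Yap1: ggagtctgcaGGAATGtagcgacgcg

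Wwtr1: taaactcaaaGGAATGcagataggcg

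Vgll4: agtggggtggGGAATGctgagaaatg

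The knockdowns were checked on their own targets. Klf5 stood at 4.27 ± 0.14 log2 units in siKlf5, 5.38 ± 0.094 in siTfap2c and 7.16 ± 0.044 in Ctrl (SD, n = 2 each). Tfap2c stood at 6.54 ± 0.044 in siKlf5, 4.01 ± 0.11 in siTfap2c and 6.61 ± 0.0043 in Ctrl (SD, n = 2 each). Klf5 was thus lower in both knockdowns, by 1.78 log2 units in siTfap2c (SE 0.10, limma adjusted p = 4.74e-06). The 8 genes listed as markers of the 8-cell embryo were all above 1 linear unit in every group. Of these 8, 3 fell in siKlf5 and 7 in siTfap2c, the targeted genes included, where 5.27% and 11.9% of all genes tested fell. The list medians were -0.38 and -1.28 log2 units, against -0.02 and 0.04 over all genes. The 5 oocyte markers were also above 1 unit in every group. In siKlf5, siTfap2c and Arpc1bE_CdxE1_KO 0 of them passed, where 7.52%, 24.6% and 24% of all genes did. In CdxE2_KO 2 of the 5 passed as higher, Gdf9 (0.58, adjusted p = 0.0462) and Oosp1 (0.85, adjusted p = 0.0255), where 28.5% of all genes did. Neither passed after centring. The 5 summed to 51.2 to 53.5 linear units in CdxE2_KO and 35.1 to 36.2 in Ctrl. The linear values of a library summed to 388454 to 395401 in the knockdown and Ctrl libraries and to 478651 to 498621 in the motif knockout libraries. The median difference from Ctrl over all tested genes was 0.27 log2 units in Arpc1bE_CdxE1_KO and 0.29 in CdxE2_KO. Knockout values are therefore given also after centring each library on the median of its tested genes. Centring took these median differences to -0.048 and -0.039, so it removes slightly more than this shift. The knockdowns and Ctrl stand in separate tables, which may have been scaled apart.

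In siTfap2c, Ctgf and Tead1 rose and Tead4 and Vgll4 fell, and these 4 calls passed in every alternative fit that tested the gene, while no difference of Yap1 or Wwtr1 passed. In siKlf5, Tead4 and Vgll4 fell and Cyr61 rose, but each of those calls was lost without at least 1 of the libraries. In both motif knockouts Cyr61 and Wwtr1 stood higher, and in CdxE2_KO Ctgf also stood higher and Vgll4 lower; of these, Cyr61 and Vgll4 in CdxE2_KO passed after centring. A gene was taken to pass at a limma adjusted p under 0.05 over all genes tested. By that rule 3 of the 9 genes passed in siKlf5, where 7.52% of the 11195 genes tested did (2.25% as higher and 5.27% as lower). In siTfap2c 4 of 9 passed, where 24.6% of all genes did (12.6% as higher and 11.9% as lower). Between siTfap2c and siKlf5 4 of 9 passed, against 25.6% (15.1% higher and 10.5% lower). In the knockouts 2 of 9 passed in Arpc1bE_CdxE1_KO, against 24% of 10920 genes (23.2% higher and 0.815% lower), and 4 of 9 in CdxE2_KO, against 29.9% (28.5% higher and 1.44% lower). The counts in the knockouts lie near their backgrounds, and that of Arpc1bE_CdxE1_KO is no result about these genes. All 9 genes passed the filter on low values in both fits. The 4 comparisons share the Ctrl libraries and are therefore not independent of each other. In bulk embryos, fewer cells of a type and less RNA per cell cannot be told apart.

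**Figure D1:**
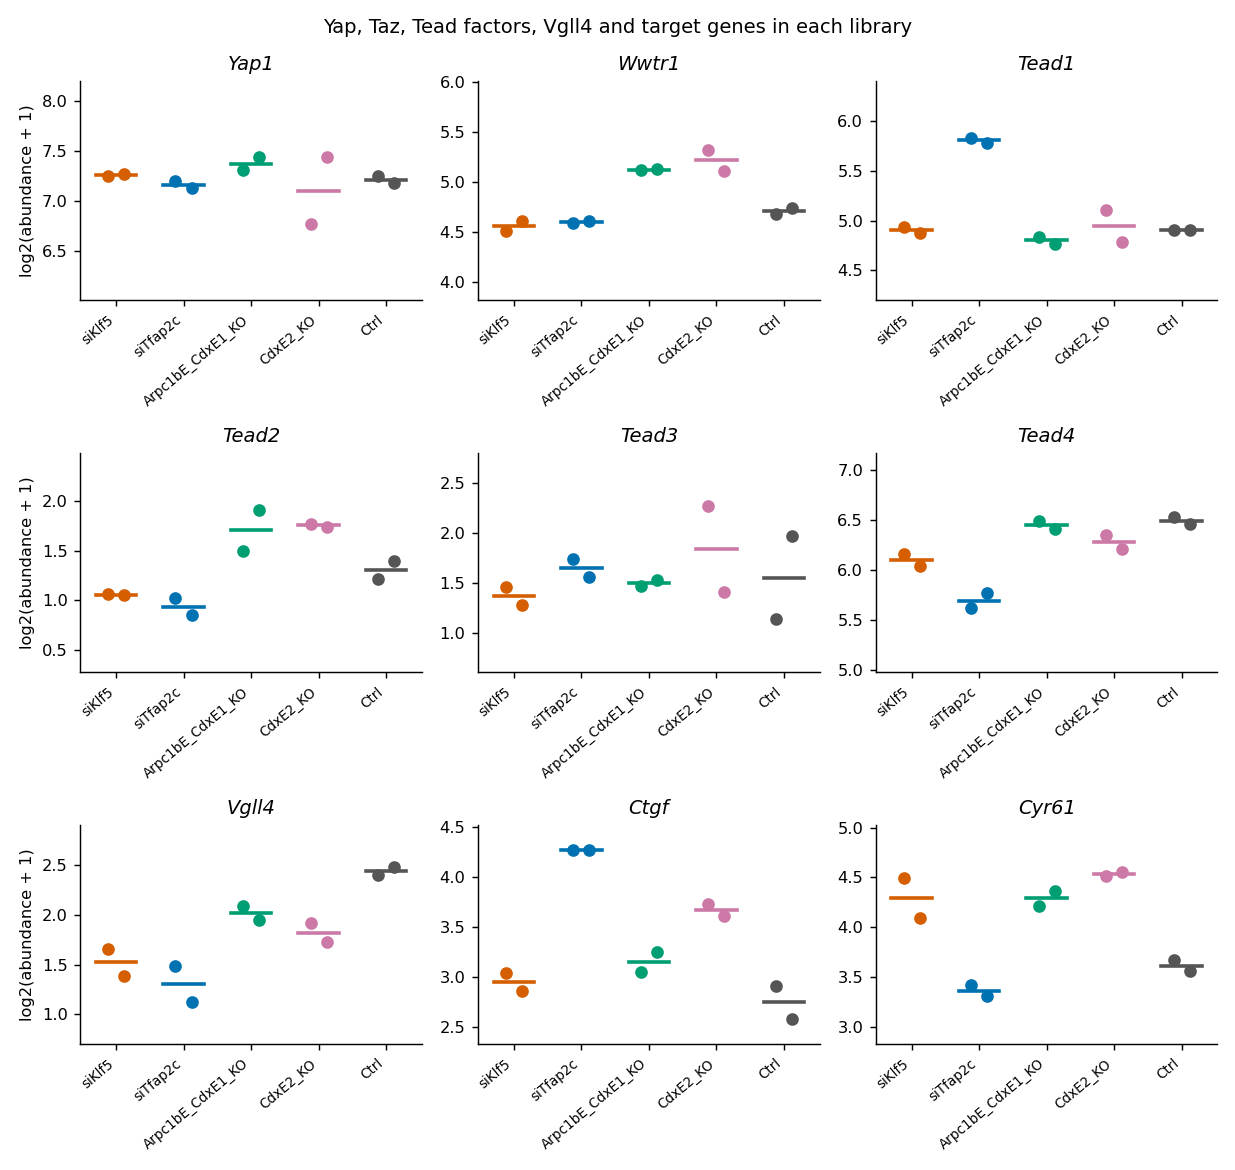
Level of each of the 9 genes in every library, in log2(abundance + 1) units; points are libraries and bars group means, and each panel spans the same height. Ctgf and Tead1 are highest in siTfap2c (4.28 and 4.27 for Ctgf), while Tead4 and Vgll4 are highest in Ctrl.

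Among the coactivators, Yap1 (mm10 chr9:7931999-8004596, minus strand) showed no difference that passed in any comparison. It stood at 7.25 and 7.27 log2 units in siKlf5, 7.20 and 7.13 in siTfap2c, 7.31 and 7.44 in Arpc1bE_CdxE1_KO, 6.77 and 7.44 in CdxE2_KO, and 7.25 and 7.18 in Ctrl. The 10 libraries lie close together apart from CdxE2_KO replicate 1, which is the lowest. The 95% interval of the difference from Ctrl ran from -0.33 to 0.43 log2 units in siKlf5 and from -0.43 to 0.33 in siTfap2c (limma adjusted p = 0.911 and 0.863), so a change of 1 log2 unit lies outside both. Exons of Yap1 overlap those of Gm20416 on the other strand, and whether the counting used strand is not given in the sources used here.

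Wwtr1, which encodes Taz (chr3:57455649-57575910, minus strand), stood at 4.50 and 4.61 log2 units in siKlf5, 4.59 and 4.61 in siTfap2c, 5.12 and 5.13 in Arpc1bE_CdxE1_KO, 5.32 and 5.12 in CdxE2_KO, and 4.68 and 4.74 in Ctrl. All 4 knockout libraries lie above the other 6. The difference from Ctrl was 0.41 log2 units in Arpc1bE_CdxE1_KO (SE 0.10, limma adjusted p = 0.0298) and 0.51 in CdxE2_KO (SE 0.10, adjusted p = 0.0137). Most of it went with the shift of all genes: after centring, 0.09 and 0.17 log2 units were left (adjusted p = 0.655 and 0.344), and neither passed. The calls also failed without replicate 1 of Arpc1bE_CdxE1_KO (adjusted p = 0.058) or of CdxE2_KO (0.081) and, in Arpc1bE_CdxE1_KO and CdxE2_KO, without Ctrl replicate 1 (0.153 and 0.0886) or Ctrl replicate 2 (0.12 and 0.068). In the knockdowns the differences of Wwtr1 from Ctrl were -0.16 in siKlf5 and -0.12 in siTfap2c (adjusted p = 0.36 and 0.402).

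The Tead factors are the DNA-binding partners of Yap and Taz, and Tead4 is the family member needed for trophectoderm in the mouse. Tead4 (chr6:128224288-128300823, minus strand) stood at 6.16 and 6.04 log2 units in siKlf5, 5.62 and 5.77 in siTfap2c, 6.49 and 6.42 in Arpc1bE_CdxE1_KO, 6.35 and 6.21 in CdxE2_KO, and 6.53 and 6.46 in Ctrl. Its group means thus ran from Ctrl and Arpc1bE_CdxE1_KO, whose libraries overlap, through CdxE2_KO and siKlf5 to siTfap2c, and no later neighbours in that order overlap, though the knockdown and knockout libraries differ in their linear sums. Tead4 fell by 0.80 log2 units in siTfap2c relative to Ctrl (SE 0.09, limma adjusted p = 0.000196), with linear means of 50.8 units in siTfap2c and 89.3 in Ctrl, and passed in each of 11 alternative fits. It fell by 0.40 in siKlf5 (SE 0.09, adjusted p = 0.0263). The siKlf5 call failed without any 1 of the 4 libraries compared: without siKlf5 replicate 1 or 2 the adjusted p was 0.068 and 0.168, and without Ctrl replicate 1 or 2 it was 0.16 and 0.099. Tead4 was lower in siTfap2c than in siKlf5 by 0.41 log2 units (SE 0.09, adjusted p = 0.00798; 0.0736 without siTfap2c replicate 1 and 0.064 without siKlf5 replicate 1). In CdxE2_KO it stood 0.21 below Ctrl (adjusted p = 0.104), and 0.55 below it after centring (adjusted p = 0.0211).

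Tead1 (chr7:112679318-112906807, plus strand) moved the other way from Tead4 in siTfap2c. Its level was 4.94 and 4.87 log2 units in siKlf5, 5.83 and 5.78 in siTfap2c, 4.84 and 4.77 in Arpc1bE_CdxE1_KO, 5.11 and 4.79 in CdxE2_KO, and 4.90 and 4.91 in Ctrl. The siTfap2c libraries stand clear above the other 8, which lie between 4.77 and 5.11. The rise in siTfap2c was 0.90 log2 units against Ctrl (SE 0.10, limma adjusted p = 0.000305) and 0.90 against siKlf5 (SE 0.10, adjusted p = 0.000332), with a linear mean of 54.9 units in siTfap2c and 29.0 in both siKlf5 and Ctrl, and both passed in each of 11 alternative fits. In siKlf5 the 95% interval of the difference from Ctrl ran from -0.24 to 0.23 (adjusted p = 0.999).

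The Tead1 to Tead4 ratio within a library does not depend on how that library was scaled. Only its change between libraries is read here, since the kind of abundance is not given and the ratio may also hold the lengths of the genes. On the linear scale its log2 was -1.25 and -1.20 in siKlf5, 0.22 and 0.01 in siTfap2c, -1.68 and -1.69 in Arpc1bE_CdxE1_KO, -1.27 and -1.45 in CdxE2_KO, and -1.66 and -1.59 in Ctrl. The siTfap2c libraries are the highest. The siKlf5 and CdxE2_KO libraries lie between them and those of Ctrl and Arpc1bE_CdxE1_KO. The ratio itself was not tested.

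**Figure D2:**
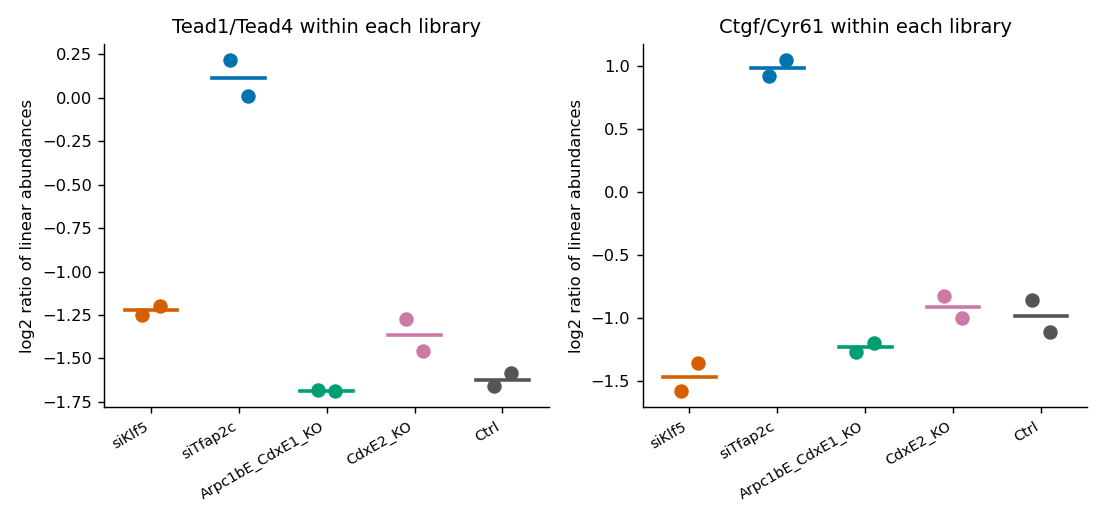
Log2 ratio of linear abundances within each library, Tead1 over Tead4 on the left and Ctgf over Cyr61 on the right. Points are libraries and bars are group means. Only changes between libraries are read, since the size of a ratio may also hold the lengths of the genes. In siTfap2c both ratios are the highest of the 5 groups, at 0.22 and 0.01 for Tead1 over Tead4 and 0.92 and 1.04 for Ctgf over Cyr61.

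Tead2, Tead3 and Vgll4 were low throughout, so their changes are the most understated by the added constant. Tead2 (chr7:45215753-45233644, plus strand), which encodes another Tead factor, stood at 1.07 and 1.05 log2 units in siKlf5, 1.02 and 0.86 in siTfap2c, 1.50 and 1.91 in Arpc1bE_CdxE1_KO, 1.77 and 1.74 in CdxE2_KO, and 1.21 and 1.39 in Ctrl. The knockout libraries are the highest 4 and the knockdown libraries the lowest 4, yet no difference passed (limma adjusted p = 0.449 in siKlf5, 0.158 in siTfap2c, 0.16 in Arpc1bE_CdxE1_KO and 0.11 in CdxE2_KO). Exons of Tead2 overlap those of Cd37 on the other strand. Tead3 (chr17:28331671-28350817, minus strand) spread most within CdxE2_KO and within Ctrl, with 2.27 and 1.40 in CdxE2_KO and 1.14 and 1.97 in Ctrl. Its other 6 libraries lay between 1.27 and 1.74, and its differences from Ctrl had adjusted p values of 0.554 to 0.914.

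Vgll4 (chr6:114860628-114969994, minus strand) encodes a protein that competes with Yap for Tead factors and so acts as a brake on their targets. It stood at 1.66 and 1.39 log2 units in siKlf5, 1.49 and 1.13 in siTfap2c, 2.09 and 1.95 in Arpc1bE_CdxE1_KO, 1.92 and 1.73 in CdxE2_KO, and 2.40 and 2.48 in Ctrl. Both Ctrl libraries lie above all others, and the group means follow the same order as those of Tead4. Vgll4 fell by 1.13 log2 units in siTfap2c (SE 0.17, limma adjusted p = 0.00126), with linear means of 1.49 units in siTfap2c and 4.43 in Ctrl. This call passed in every alternative fit that tested the gene. The highest library of Vgll4 was at 4.58 linear units, so the alternative fit with a filter at 5 linear units did not test it. Vgll4 fell by 0.92 in siKlf5 (SE 0.17, limma adjusted p = 0.0138). The siKlf5 call failed without siKlf5 replicate 2 (adjusted p = 0.101), Ctrl replicate 1 (0.073) or Ctrl replicate 2 (0.089). The difference between siTfap2c and siKlf5 was -0.21 with a 95% interval of -0.59 to 0.16 (adjusted p = 0.394). In CdxE2_KO Vgll4 fell by 0.62 (SE 0.15, adjusted p = 0.0233), and by 0.95 after centring (adjusted p = 0.0187). That call failed without CdxE2_KO replicate 1 or 2 (adjusted p = 0.059 and 0.12) and without Ctrl replicate 1 or 2 (0.098 and 0.122). In Arpc1bE_CdxE1_KO it stood 0.42 below Ctrl (adjusted p = 0.0794), and 0.74 below it after centring (adjusted p = 0.0492).

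**Figure D3:**
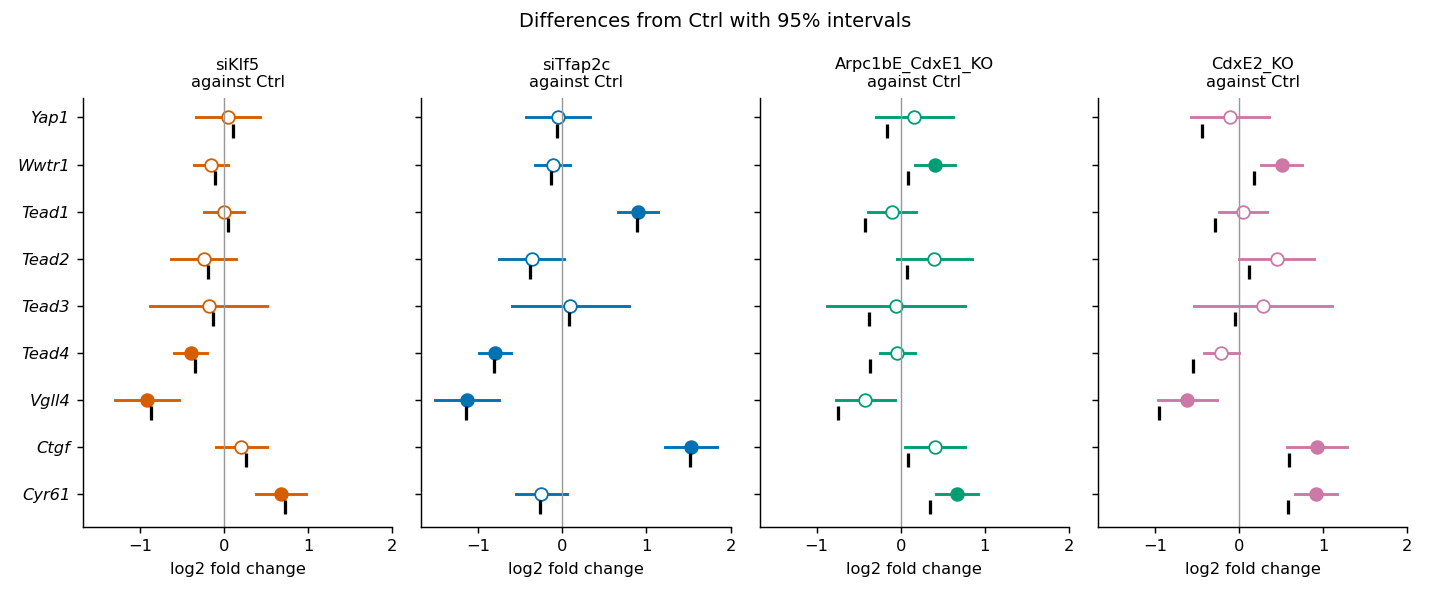
Difference of each of the 9 genes from Ctrl in log2 fold change, with 95% intervals, in the 4 other groups; filled points passed at an adjusted p under 0.05 and open points did not. The black ticks give the value after centring on the library median, which moves the knockout values down, as for Wwtr1 in CdxE2_KO from 0.51 to 0.17.

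The target genes differed in the groups where they were highest. Ctgf (chr10:24595442-24598683, plus strand), which encodes connective tissue growth factor, stood at 3.04 and 2.86 log2 units in siKlf5, 4.28 and 4.27 in siTfap2c, 3.05 and 3.25 in Arpc1bE_CdxE1_KO, 3.73 and 3.61 in CdxE2_KO, and 2.91 and 2.58 in Ctrl. The siTfap2c libraries are the highest, those of CdxE2_KO come next, and siKlf5 overlaps Ctrl. Ctgf rose by 1.53 log2 units in siTfap2c against Ctrl (SE 0.14, limma adjusted p = 6.38e-05), with linear means of 18.3 units in siTfap2c and 5.75 in Ctrl, and by 1.33 against siKlf5 (SE 0.14, adjusted p = 0.000169); both passed in each of 11 alternative fits. In siKlf5 the difference from Ctrl was 0.20 with a 95% interval of -0.10 to 0.51 (adjusted p = 0.426). In CdxE2_KO Ctgf rose by 0.93 (SE 0.15, adjusted p = 0.00808). After centring that difference was 0.59 (adjusted p = 0.0675), and without Ctrl replicate 2 it was 0.76 (adjusted p = 0.0527). In Arpc1bE_CdxE1_KO it was 0.41 (adjusted p = 0.0902). Exons of Ctgf overlap those of Gm15270 on the other strand.

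Cyr61 (chr3:145646976-145649981, minus strand), which encodes the cysteine-rich angiogenic inducer, stood at 4.50 and 4.09 log2 units in siKlf5, 3.42 and 3.31 in siTfap2c, 4.22 and 4.36 in Arpc1bE_CdxE1_KO, 4.51 and 4.55 in CdxE2_KO, and 3.68 and 3.56 in Ctrl. The siKlf5 and both knockout groups lie above Ctrl, and siTfap2c lies below it. Cyr61 rose by 0.68 log2 units in siKlf5 (SE 0.13, limma adjusted p = 0.0187). The call failed without siKlf5 replicate 1 (adjusted p = 0.093), Ctrl replicate 1 (0.078) or Ctrl replicate 2 (0.115). In siTfap2c the difference from Ctrl was -0.25, with a 95% interval of -0.55 to 0.05 (adjusted p = 0.215). Cyr61 was lower in siTfap2c than in siKlf5 by 0.93 (SE 0.13, adjusted p = 0.00111), and this passed in each of 11 alternative fits. In CdxE2_KO Cyr61 rose by 0.92 (SE 0.11, adjusted p = 0.00414) and by 0.58 after centring (adjusted p = 0.031), the only knockout call among the 9 genes that passed in each of 11 alternative fits. In Arpc1bE_CdxE1_KO it rose by 0.67 (SE 0.11, adjusted p = 0.00979), and stood 0.35 above Ctrl after centring (adjusted p = 0.13). That call also failed without Ctrl replicate 1 or 2 (adjusted p = 0.055 and 0.0767).

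The log2 ratio of Ctgf to Cyr61 within a library was -1.58 and -1.36 in siKlf5, 0.92 and 1.04 in siTfap2c, -1.27 and -1.20 in Arpc1bE_CdxE1_KO, -0.83 and -1.0 in CdxE2_KO, and -0.86 and -1.11 in Ctrl. Its mean was 0.98 in siTfap2c and -0.98 in Ctrl, the siKlf5 libraries are the lowest, and those of CdxE2_KO and Ctrl overlap. The ratio was not tested.

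Both targets are also strongly expressed by stromal and follicle cells, whose markers were therefore looked up. The 12 cumulus and granulosa markers summed to 1.16 to 1.7 linear units in siKlf5, 1.51 to 1.59 in siTfap2c, 1.48 to 1.53 in Arpc1bE_CdxE1_KO, 1.31 to 2.22 in CdxE2_KO and 1.32 to 1.55 in Ctrl. Star was the highest of the 12 in every library, at 0.78 to 1.20 log2 units. Has2 reached 0.64 linear units in CdxE2_KO replicate 2, and Inha, Fshr and Nr5a1 were listed at 0 in all 10 libraries. The 8 stromal markers summed to 5.99 to 8.22 units in siKlf5, 4.20 to 5.65 in siTfap2c, 11.6 to 12.2 in Arpc1bE_CdxE1_KO, 13.8 to 14.3 in CdxE2_KO and 7.58 to 8.06 in Ctrl. Nearly all of that was Pdgfra, a growth factor receptor that embryonic cells also use, and the collagen-binding proteoglycan genes Dcn and Lum were listed at 0 in all 10 libraries. The stromal sum therefore follows Pdgfra and is not read as a measure of stromal cells. Pdgfra stood 0.53 log2 units below Ctrl in siTfap2c (limma adjusted p = 0.0316). That call was lost without siTfap2c replicate 1, Ctrl replicate 1 or Ctrl replicate 2, and also without a filter on low values. Pdgfra stood 0.60 above Ctrl in Arpc1bE_CdxE1_KO and 0.86 above it in CdxE2_KO (limma adjusted p = 0.0137 and 0.00484). After centring these were 0.28 and 0.52 (adjusted p = 0.208 and 0.0421). The part of stromal or follicle cells in the differences of Ctgf and Cyr61 was not tested.

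The other genes of the pathway were read as lists, against the 7.52% of all genes that passed in siKlf5 and the 24.6% in siTfap2c. Of 25 Hippo kinases and upstream regulators, 22 were tested. In siTfap2c 4 passed as higher and 2 as lower, with a list median of 0.07 log2 units against 0.04 over all genes; this share of the list is near the 24.6% of all genes that passed, so the count is no result about the list. The kinase gene Lats2, which restrains Yap, rose by 0.46 (SE 0.09, limma adjusted p = 0.00495), and Ajuba, whose product holds Lats kinases back at junctions, rose by 0.89 (SE 0.14, adjusted p = 0.00191). Map4k4, an upstream kinase, fell by 0.55 in siTfap2c (SE 0.09, adjusted p = 0.00172). In siKlf5 0 passed as higher and 2 as lower, with a list median of 0.01 against -0.02 over all genes: Taok1 (fell by 0.44, adjusted p = 0.0115) and Map4k4 (fell by 0.37, adjusted p = 0.0343). Both siKlf5 calls failed without any 1 of the 4 libraries, at an adjusted p of up to 0.0778 for Taok1 and 0.174 for Map4k4.

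The genes of other Yap-binding proteins include the angiomotins. Of 18 listed genes 14 were tested, and in siTfap2c 1 passed as higher and 6 as lower, with a list median of -0.22 log2 units. Amot, the angiomotin that helps Lats kinases restrain Yap in inner cells, stood at 4.62 and 4.81 log2 units in siKlf5, 2.46 and 2.50 in siTfap2c and 4.98 and 4.97 in Ctrl. It fell by 2.49 in siTfap2c (SE 0.13, limma adjusted p = 2.56e-06). Its relative Amotl1 stood at 2.68 and 2.64 in siKlf5, 4.98 and 5.24 in siTfap2c and 1.87 and 1.34 in Ctrl, a rise of 3.50 in siTfap2c (SE 0.18, adjusted p = 2.56e-06). These relatives thus moved in opposite directions in siTfap2c, where the third angiomotin gene, Amotl2, stood 0.37 below Ctrl and did not pass (adjusted p = 0.151). The phosphoserine-binding adaptor genes Ywhab and Ywhaz, whose family of proteins holds phosphorylated Yap in the cytoplasm, fell by 0.86 and 0.83 (limma adjusted p = 0.00013 and 0.00238). The family did not move alike in siTfap2c. Ywhag and Sfn also lay below Ctrl, but the libraries of Ywhae, Ywhah and Ywhaq overlapped those of Ctrl. Ywhae stood at 8.07 and 8.15 in siTfap2c and 8.08 and 8.19 in Ctrl, and Ywhaq at 6.81 and 6.47 against 6.60 and 5.97. Of the 14 tested genes of the list, 1 passed as higher and 2 as lower in siKlf5, with a median of -0.14. Amotl1 rose by 1.05 (SE 0.18, adjusted p = 0.00898; 0.055 without siKlf5 replicate 1, 0.0601 without siKlf5 replicate 2 and 0.0501 without Ctrl replicate 2), and Amotl2 fell by 0.71 (SE 0.17, adjusted p = 0.0364; 0.095 to 0.195 without any 1 library).

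**Figure D4:**
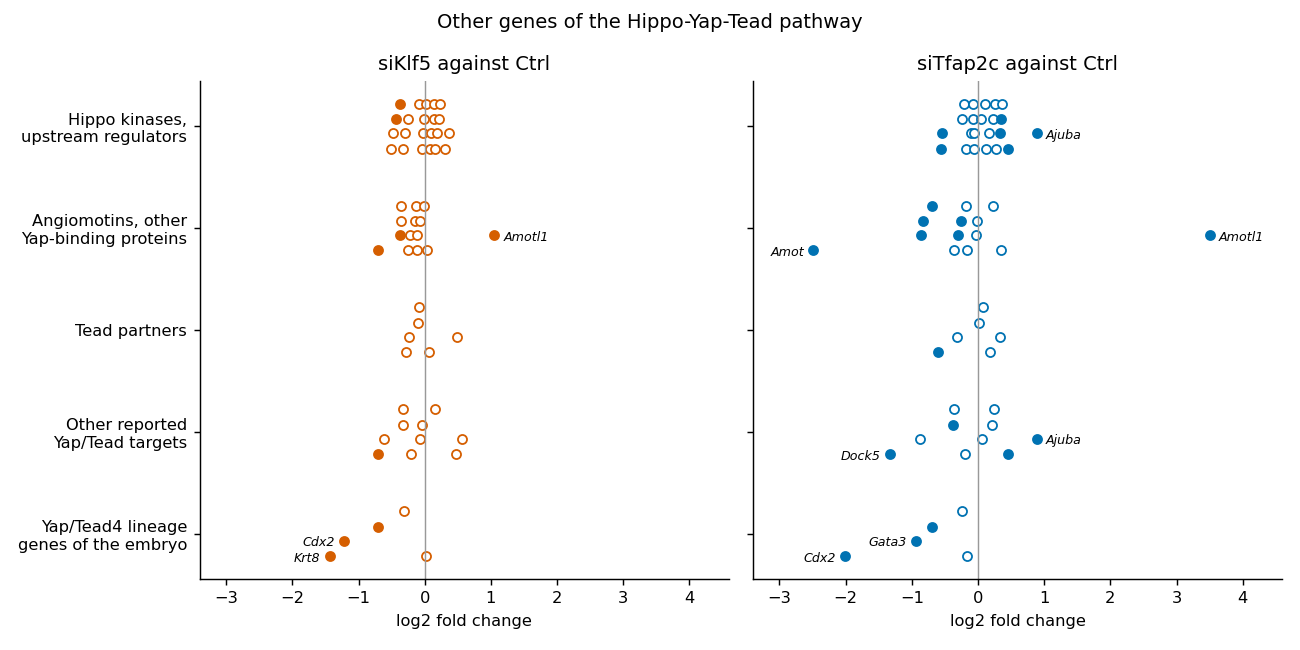
Log2 fold change of each tested gene of 5 pathway lists in siKlf5 (left) and siTfap2c (right) against Ctrl; filled points passed at an adjusted p under 0.05, open points did not, and the named genes passed with a change of over 0.88. In siTfap2c Amotl1 lies at 3.50 and Amot at -2.49, the widest spread of the lists.

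Of 24 other reported Yap and Tead targets only 10 reached the filter. Ankrd1, a muscle ankyrin repeat protein often used as a Yap reporter gene, did not, with at most 0.65 linear units in any library. In siTfap2c 2 passed as higher and 2 as lower, with a list median of -0.06 log2 units: Ajuba and Lats2, which also stand in the Hippo list, rose, while Dock5, an activator of Rac, fell by 1.33 (SE 0.11, limma adjusted p = 5.23e-05) and Birc5, the survivin gene, fell by 0.38 (adjusted p = 0.0394; 0.0508 to 0.236 without any 1 library). In siKlf5 0 passed as higher and 1 as lower, Amotl2, with a median of -0.14. The other 4 CCN family genes were all under the filter. Of 10 other Tead partners 6 were tested. In siTfap2c 1 of them passed, Ncoa3, a coactivator, which fell by 0.61 (adjusted p = 0.00116), with a list median of 0.04, and in siKlf5 0 passed, with a median of -0.09.

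Lineage genes that depend on Yap and Tead4 in the mouse embryo were mostly lower in the knockdowns. Of 6 listed, 5 were tested, and 3 fell in each knockdown, though not the same 3, where 5.27% of all genes fell in siKlf5 and 11.9% in siTfap2c. The list medians were -0.71 log2 units in siKlf5 and -0.69 in siTfap2c, against -0.02 and 0.04 over all genes. Gata3 did not pass in siKlf5 (0.02, limma adjusted p = 0.954). Krt8 did not pass in siTfap2c, with means of 2.81 there and 2.97 in Ctrl. It was 1.27 higher in siTfap2c than in siKlf5 (SE 0.23, adjusted p = 0.00347). Cdx2, the trophectoderm transcription factor, stood at 1.15 and 1.23 log2 units in siKlf5, 0.23 and 0.57 in siTfap2c, 0.77 and 1.53 in Arpc1bE_CdxE1_KO, 0.82 and 0.93 in CdxE2_KO, and 2.35 and 2.48 in Ctrl. It fell by 1.23 in siKlf5 (SE 0.24, limma adjusted p = 0.017; 0.0824 to 0.102 without any 1 library) and by 2.02 in siTfap2c (SE 0.24, adjusted p = 0.000325). Gata3, another trophectoderm factor, fell by 0.94 in siTfap2c (SE 0.14, adjusted p = 0.00135), and the keratin gene Krt18 fell by 0.69 (adjusted p = 0.00754; 0.058 without siTfap2c replicate 1 and 0.067 without Ctrl replicate 1). In siKlf5 the keratin genes Krt8 and Krt18 fell by 1.44 and 0.71 (adjusted p = 0.00743 and 0.0205). Without siKlf5 replicate 2 or Ctrl replicate 1 the Krt8 call failed (0.065 and 0.0663), and the Krt18 call failed without siKlf5 replicate 1 or 2 or Ctrl replicate 1 (0.092, 0.11 and 0.146).

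The lists in the motif knockouts are read against the shift of all genes. Of all genes tested, 23.2% passed as higher and 0.815% as lower in Arpc1bE_CdxE1_KO, and 28.5% and 1.44% in CdxE2_KO. The lists held 22, 14, 10, 6 and 5 tested genes, in the order given below. Outside the lineage list, the counts of higher genes lie near or under these shares and are no result about the lists. The Hippo list had 3 higher and 0 lower in Arpc1bE_CdxE1_KO, with a median of 0.24 log2 units against 0.27 over all genes, and 6 higher and 0 lower in CdxE2_KO, with a median of 0.29 against 0.29. The Yap-binding list had 2 higher and 1 lower in Arpc1bE_CdxE1_KO with a median of 0.11, and 3 higher and 2 lower in CdxE2_KO, with a median of -0.02. The other targets had 2 higher and 0 lower in Arpc1bE_CdxE1_KO (median 0.22) and 3 higher and 0 lower in CdxE2_KO (median 0.25). The other Tead partners had 0 calls in Arpc1bE_CdxE1_KO (median 0.04) and 1 higher in CdxE2_KO (median 0.22). The lineage genes had 3 higher and 1 lower in Arpc1bE_CdxE1_KO (median 0.76) and 1 higher and 1 lower in CdxE2_KO (median 0.33). The higher ones were Eomes (0.96), Krt8 (0.89) and Krt18 (0.76) in Arpc1bE_CdxE1_KO and Eomes (0.73) in CdxE2_KO. After centring, 0 genes of these 5 lists passed as higher in either knockout. The Yap-binding gene that fell in both was Csnk1e, a casein kinase that primes Yap for breakdown, by 0.63 in Arpc1bE_CdxE1_KO (SE 0.11, limma adjusted p = 0.013) and by 0.60 in CdxE2_KO (SE 0.11, adjusted p = 0.0111). Both passed after centring (adjusted p = 0.00972 and 0.00905), but the Arpc1bE_CdxE1_KO call failed without Ctrl replicate 1 (0.0566) or 2 (0.095), and the CdxE2_KO call without CdxE2_KO replicate 2 (0.0756) or Ctrl replicate 2 (0.0761). Cdx2 fell by 1.26 in Arpc1bE_CdxE1_KO (SE 0.25, adjusted p = 0.0176) and by 1.54 in CdxE2_KO (SE 0.25, adjusted p = 0.00811). Each call was lost without Ctrl replicate 1 or Ctrl replicate 2. The names of both knockout groups carry the letters Cdx, and the labels do not say whether the deleted motifs belong to Cdx2.

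Genes with the most similar pattern over the 10 libraries were found by Pearson correlation among 5228 genes whose highest group mean was at least 10 linear units. The points share libraries and fall in 5 groups, so the coefficients describe these libraries only. Among the genes most like Tead4 were Wars2, a mitochondrial tryptophanyl-tRNA synthetase, and Grin1, a glutamate receptor subunit (both r = 0.98). Ctgf was most like Arid2 (0.98), a chromatin remodelling subunit, Mtmr12 (0.97) and Dgke (0.96), a diacylglycerol kinase. Cyr61 was most like Snx18 (0.98), a sorting nexin, the small nucleolar RNA gene Snord95 (0.97) and Mthfd1 (0.95), an enzyme of folate metabolism. Yap1 had no close match, with Caprin1 at 0.76 and Fignl1 and Nr1h2 both at 0.74.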

How the data were processed

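Total RNA was sequenced from 10 libraries of embryos with a stranded kit, random primers and depletion of ribosomal cDNA, per the labels' protocols. The submitters' processing notes name the mm10 build and, in no stated order, Cufflinks, StringTie 1.3.4, HISAT2 2.1.0 and SAMtools 1.7. The values the authors deposited are log2 abundances with 1 added, in 3 tables: siKlf5, siTfap2c, and the motif knockouts with Ctrl. No read counts were used here, and the depth behind each value is unknown. Genes that reached 1 linear unit in 2 or more libraries were tested in R 4.3.3 with limma 3.58.1 (a trended eBayes fit with the group as its only term) and adjusted by Benjamini-Hochberg over all genes tested. The knockdowns were fitted on all 10 libraries (11195 genes), across tables, and the knockouts in their own table of 6 libraries (10920 genes). The fits were tested on simulated data. The 9 genes, the 10 gene lists and the alternatives were chosen with earlier results of these data known. Genes named are the 9 members, Klf5 and Tfap2c, up to 4 genes per list and comparison with the lowest p among those that passed, and 3 genes of like pattern each for Yap1, Tead4, Ctgf and Cyr61. A gene that this rule names is not reported here. Ankrd1, Amotl2 in siTfap2c, Ywhae, Ywhag, Ywhah, Ywhaq and Sfn, and list genes named in a further group's levels were chosen after their values were seen. Gene positions are from GENCODE M21 and upstream sequences from RefSeq GRCm38.p6.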

Additional observations from a re-analysis of the deposited data

How the results depend on the processing

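Calls over all genes were 842 in siKlf5, 2749 in siTfap2c, 2865 between siTfap2c and siKlf5, 2621 in Arpc1bE_CdxE1_KO and 3270 in CdxE2_KO. With 1 library left out they ranged from 211 to 317, 1535 to 1773, 1587 to 1785, 161 to 2864 and 514 to 1099 in that order of comparisons. Without a filter on low values they were 507 in siKlf5, 1166 in Arpc1bE_CdxE1_KO and 1858 in CdxE2_KO. Centring gave 321 in Arpc1bE_CdxE1_KO and 681 in CdxE2_KO, and equal linear sums gave 313 and 705. Centring moved the share of calls that were higher from 29.9% to 46.2% in siKlf5, from 59.1% to 46.5% between siTfap2c and siKlf5, from 96.6% to 55.5% in Arpc1bE_CdxE1_KO and from 95.2% to 42.3% in CdxE2_KO. Of the 9 genes, 3 passed in siKlf5 (1 without a filter), 4 in siTfap2c and 4 between the knockdowns. In Arpc1bE_CdxE1_KO 2 passed (1 without a filter, 1 after centring, 0 with equal sums). In CdxE2_KO 4 passed (3 without a filter, after centring or with equal sums). With 1 library left out, 0 to 1, 4 to 4, 3 to 4, 0 to 2 and 1 to 3 passed in that order. The gene that passed in Arpc1bE_CdxE1_KO after centring was Vgll4, which had not passed before, while Wwtr1 and Cyr61 were lost. In CdxE2_KO centring and equal sums each lost Ctgf and Wwtr1 and gained Tead4, and the fit without a filter lost Vgll4. The cause of these changes was not tested.

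Differences that changed sign missed the threshold in the fit that reversed them, and all but Strn in Arpc1bE_CdxE1_KO had missed it before. After centring, Tead1 was 0.052 in siKlf5 and -0.29 in CdxE2_KO, Wwtr1 was -0.031 between the knockdowns, Yap1 was -0.16 and Strn -0.031 in Arpc1bE_CdxE1_KO, and Tead3 was -0.047 in CdxE2_KO. With equal sums, Yap1 was -0.17 and Strn -0.038 in Arpc1bE_CdxE1_KO, and Tead1 was -0.25 in CdxE2_KO. With 1 library left out, Tead1 ranged from -0.033 to 0.032 in siKlf5 and from -0.12 to 0.20 in CdxE2_KO, Tead3 from -0.60 to 0.23 in siKlf5, -0.32 to 0.51 in siTfap2c, -0.47 to 0.36 in Arpc1bE_CdxE1_KO and -0.15 to 0.72 in CdxE2_KO, Wwtr1 from -0.015 to 0.092 between the knockdowns, and Yap1 from -0.45 to 0.23 in CdxE2_KO. Replicate numbers are shared by the groups, but deviations of same-numbered libraries correlated at only -0.050 to 0.044 between groups, so the numbers do not pair the libraries; with the replicate as a block 706, 2615, 2735, 2483 and 3087 genes were called and no call among the 9 genes was lost. Unknown depth and 2 libraries a group limit all of these values.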
